A study of Mus musculus with 18 samples.

Results

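Cytosolic ribosomal protein genes were taken from the deposited expression table by their symbols: those that start with Rpl or Rps and a digit, and Rplp0 to Rplp2, without pseudogenes marked -ps and without the Rps6k kinases. Of 88 matching symbols, the 83 with a mean of at least 10 TPM (transcript abundance scaled by length and to a fixed total per library) over the 18 libraries are described here, among 24493 symbols in all. They hold all 76 listed core proteins of the ribosome, 46 of the large and 30 of the small subunit. The other 7 are paralogs or carry a like name: Rpl7l1, Rpl22l1, Rpl36al, Rps27l, Rps27rt, Rpl37rt and Rps19bp1. Of the 5 symbols below the threshold, Rps4l had 8.08 TPM and Rpl39l, Rpl32l, Rpl3l and Rpl10l had 0.409 TPM or less. The members just above it were Rpl37rt at 14.7 TPM and Rps19bp1 at 53.4 TPM, and all 83 passed the filter of the test, a mean of at least 1 TPM.

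The libraries are RNA sequencing of mouse pancreatic tumor cells (strain C57BL/6) of the lines 6419c5 and 6694c2, sorted from subcutaneous tumors. The study compared WT cells of each line with Kdm3a knockout cells; the gene encodes a histone H3 demethylase. Each line has 2 knockout clones, A and B. The 6 groups are 6419c5 WT, 6419c5 clones A and B, 6694c2 WT, and 6694c2 clones A and B, with 3 libraries each and no treatment named in the labels. The 3 libraries of a knockout group come from 1 clone, and the labels do not say whether libraries of a group come from separate animals, so p-values measure the spread between these libraries, which may be technical. Age, sorting marker and the way of the knockout are not given in the sources used here.

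The cytosolic ribosome translates messenger RNA. Its large subunit holds the catalytic center and the stalk (Rplp0, Rplp1, Rplp2) that recruits elongation factors, and its small subunit reads the codons. The proteins are needed in equal copy, with the stalk dimers as the known exception, and their messenger RNAs are among the most abundant in dividing cells, tumor cells included. These transcripts begin with a tract of pyrimidines, the terminal oligopyrimidine (TOP) tract, through which the mTOR kinase and the RNA-binding protein Larp1 control their translation. Rpl5 and Rpl11, when free of the ribosome, bind Mdm2 and stabilize p53.

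The starts that RefSeq gives on build GRCm38.p6 show long pyrimidine runs in some members and short ones in others. Of the 83 members, 63 matched that table by symbol. Each line below gives 30 bases, 15 before and 15 from the start on, in the direction of transcription; where a gene has several starts, the one with the longest tract is shown. Capitals mark the longest run of C and T in the window, which need not lie at the start and had a median length of 7 bases over the 63 members. The first set holds the members with the longest runs.
Rpl7a (chr2:26910792-26910821, plus strand): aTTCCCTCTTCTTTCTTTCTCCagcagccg
Rpl27a (chr7:109519180-109519209, plus strand): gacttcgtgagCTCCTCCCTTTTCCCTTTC
Rpl34 (chr3:130730323-130730352, minus strand): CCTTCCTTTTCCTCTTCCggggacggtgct
Rpl35 (chr2:39005117-39005146, minus strand): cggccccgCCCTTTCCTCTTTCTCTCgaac
Rpl15 (chr14:18270972-18271001, minus strand): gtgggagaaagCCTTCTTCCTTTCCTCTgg
The next set holds members on which the comparison of the lines turns.
Rps6 (chr4:86857353-86857382, minus strand): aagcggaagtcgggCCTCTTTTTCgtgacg
Rpl35a (chr16:33056467-33056496, plus strand): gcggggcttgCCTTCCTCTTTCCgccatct
Rpl24 (chr16:55966260-55966289, plus strand): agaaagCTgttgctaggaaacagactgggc
The third set holds 6 of the 9 members that differed between knockout and WT cells of 6694c2, with the genes of the X chromosome first.
Rpl39 (chrX:37085208-37085237, minus strand): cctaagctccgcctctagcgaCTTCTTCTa
Rpl10 (chrX:74270801-74270830, plus strand): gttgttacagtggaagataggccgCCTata
Rpl36a (chrX:134585639-134585668, plus strand): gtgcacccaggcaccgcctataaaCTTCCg
Rps4x (chrX:102189377-102189406, minus strand): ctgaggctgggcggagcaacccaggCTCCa
Rps26 (chr10:128626492-128626521, minus strand): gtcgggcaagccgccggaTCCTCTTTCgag
Rps12 (chr10:23787195-23787224, minus strand): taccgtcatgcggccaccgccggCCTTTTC
The last set is a pair whose transcripts are almost identical although the genes start at different places.
Rps27 (chr3:90213634-90213663, minus strand): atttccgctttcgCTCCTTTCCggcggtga
Rps27rt (chr9:114982725-114982754, minus strand): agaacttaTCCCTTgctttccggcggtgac

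A run of at least 8 pyrimidines within 20 bases of a start was present in 30 of the 63 members (47.6%) and in 18.4% of the 27025 genes of the promoter table. For this and the motifs below, entries on chromosome 18 were left out for the members but kept for all genes. On the opposite strand the order was turned, with 7.94% of members and 20.2% of all genes. In the 300 bases of each promoter entry, searched on both strands, the letters CCGGAAG, which hold a binding motif of ETS factors, were found in 38.1% of members and 9.93% of all genes. The letters AAGATGGC, part of the motif of the factor YY1, were found in 9.52% of members and 3.19% of genes, and TATAAA, the TATA element, in 11.1% and 15.7%. These are matches of letters, with no data on binding in this series. The members that differed in the comparisons below include long runs (Rpl15, Rpl27a) and short ones (Rpl24, Rps4x).

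The table gives TPM only, so the depth of the libraries is unknown and no counting interval can be given. Each library has the same summed TPM, and 6.04% to 17.4% of it was listed under a single symbol, Mir6236. What RNA these reads came from was not tested. Libraries of a group correlated at 0.932 to 0.989 (Pearson, across genes). Kdm3a fell by 0.75 on the log2(TPM + 1) scale in 6419c5 (SE 0.18, limma adjusted p = 0.0185) and by 0.75 in 6694c2 (SE 0.18, limma adjusted p = 0.0091); clone A of 6419c5 alone did not pass (-0.45, adjusted p = 0.299). The 8 epithelial markers of tumor cells summed to 9322 to 12263 TPM in 6419c5 and 5462 to 8335 TPM in 6694c2, with none at 0 in a whole group. All 10 macrophage markers were present in every group as well. The summed TPM of the macrophage markers was 1502 to 8042 in 6419c5 WT, 2586 to 8753 in A and 384 to 620.01 in B. In 6694c2 it was 308 to 1949 in WT, 3586 to 6625 in A and 570.3 to 3638 in B. Of 6694c2 WT, replicate 3 stood apart for the ribosomal genes, as described next, and 3 other libraries (replicate 1 of clone A and replicate 3 of clone B of 6694c2, and 6419c5 WT replicate 3) stood apart in earlier work on these data; results that turn on them are given with and without them.

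The 83 genes made up a large share of all TPM, and it differed between the lines more than between WT and knockout. In 6419c5 it was 14.1% to 15.7% in all 9 libraries. In 6694c2, 8 of 9 libraries had 17.5% to 19.7%, and WT replicate 3 had 13.8%, below every library of 6419c5. That library also had the highest share of Mir6236, 17.4%; the part of this in the result was not tested. The group means were 15.1% ± 0.502 (SD, n = 3) in 6419c5 WT, 14.9% ± 0.516 in A and 14.6% ± 0.627 in B. They were 17.4% ± 3.13 in 6694c2 WT, 18.9% ± 0.474 in A and 17.7% ± 0.223 in B, each over 3 libraries. The ratio of the summed large to the summed small subunit TPM lay between 1.46 and 1.53 in 6419c5 and between 1.36 and 1.45 in 6694c2, and the lines did not overlap. In bulk samples fewer cells of a type and less RNA per cell cannot be told apart.

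**Figure D1:**
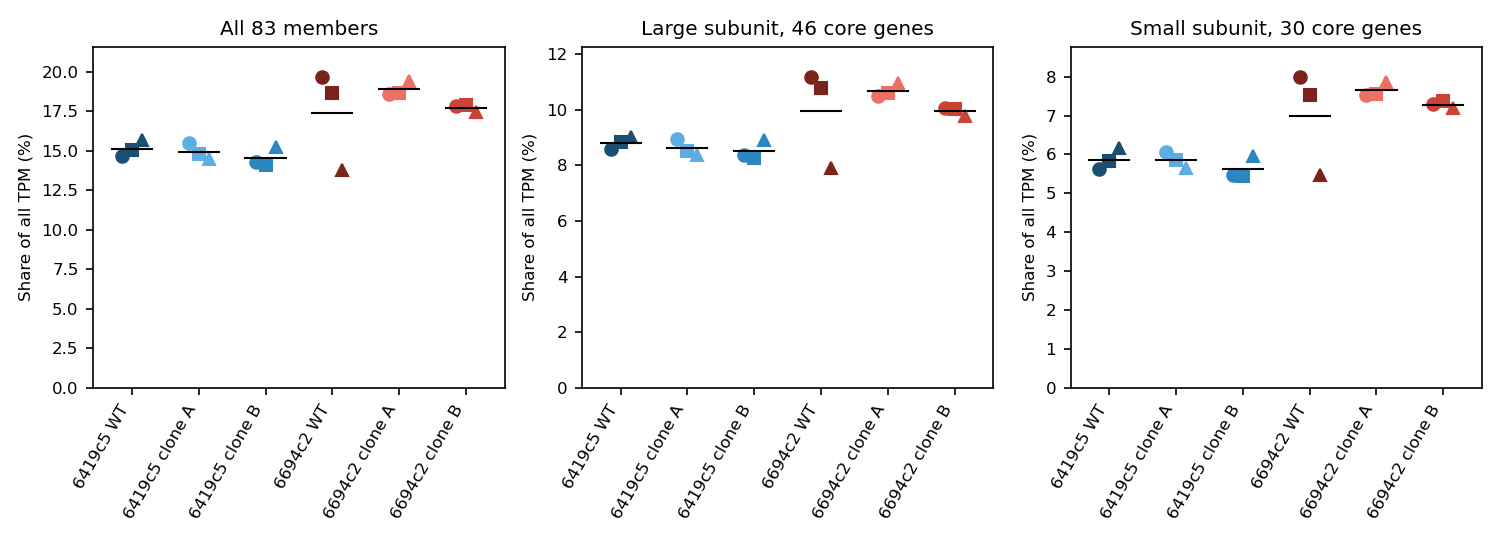
Share of all TPM (y axis, %) of all 83 members, of the 46 large subunit genes and of the 30 small subunit genes in each library, by group; circles, squares and triangles are replicates 1, 2 and 3 and bars are group means. The 9 libraries of 6419c5 lie at 14.1% to 15.7%, and 6694c2 WT replicate 3 lies at 13.8%, away from the other 6694c2 libraries.

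Since TPM are scaled by transcript length, levels can be compared between genes as far as reads can be told apart. By annotated sequence, a median of 57.5% of a member's 31-base words lay in other genes. Counting only genes listed in the deposited table, the median was 0. The median member had 1889 TPM, 50 of the 100 most abundant genes of the table were members, and 64 members had 1000 TPM or more. The highest were Rpl41 (5448 TPM), the shortest protein of the large subunit, and the stalk protein Rplp1 (5412 TPM). Rps18, Rpl32 and Rps12 followed with 4794, 4363 and 4288 TPM. The stalk partners Rplp0 and Rplp2 had 3515 and 2969.5 TPM. Rps6, the target of the S6 kinases, had 1264 TPM, and Rps27a, which is made as a fusion with ubiquitin, 1473 TPM. Rpl5 and Rpl11, the Mdm2-binding pair, had 828 and 2373 TPM. Of the 76 core genes, 13 were under 1000 TPM, and the lowest were Rps15a (87.5 TPM), Rpl30 (102 TPM) and Rpl26 (161 TPM). Beside Rpl26 and Rpl30 the table lists Gm15772 with 2559 TPM and Gm12191 with 1869 TPM. By annotated sequence these hold 69.8% of the 31-base words of the Rpl26 transcript and 53.1% of those of Rpl30, so the split of reads between the rows is uncertain. The same holds for Rpl34 (275 TPM), with 44.1% of its words in Rpl34-ps1 (2973 TPM). For Rps15a, 57.5% of the words lay in other genes. For 56 of 83 members the highest of 18 libraries was under 2 times the lowest; the steadiest was Rps3a1 at 1.35 times, with 1987 to 2675 TPM.

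Between the WT cells of the lines, most ribosomal protein genes that differed were higher in 6694c2, while most other genes that differed were lower. Of 83 members, 26 were called higher and 5 lower with limma (Benjamini-Hochberg adjusted p under 0.05 over 13422 genes), 37.3% of members against 46.3% of all genes called (14.1% higher and 32.2% lower). The median difference, 6694c2 minus 6419c5 on the log2(TPM + 1) scale, was 0.19 over the members and -0.22 over all genes. The small subunit gene Rps6 led: it had 853, 772 and 848 TPM in the WT libraries of 6419c5 and 1963, 1587 and 1515 TPM in those of 6694c2, a difference of 1.03 (SE 0.086, limma adjusted p = 2.62e-07). All libraries of 6694c2, clones included, lay at 1515 to 1963 TPM for this gene and all of 6419c5 at 772 to 853 TPM. Rpl32, a large subunit protein, had 3254, 3548 and 3346 TPM in 6419c5 WT and 6806, 7154 and 4691 TPM in 6694c2 WT (difference 0.85, SE 0.12, limma adjusted p = 4.08e-05). Rpl15, Rps7 and Rps24 were higher by 0.85, 0.82 and 0.80, with limma adjusted p of 3.3e-06, 8.83e-06 and 8.69e-05. Among the regulators of p53, Rpl5 differed by 0.38 (adjusted p = 0.0638) and Rpl11 by -0.11 (adjusted p = 0.517), and neither passed.

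Among the members lower in 6694c2 were Rps26 (-0.55, limma adjusted p = 0.00157), Rpl24 (-0.46, 0.000715), Rpl35a (-0.46, 0.00214) and Rpl21 (-0.31, 0.0132). Rpl35a had 2815, 2665 and 3054 TPM in 6419c5 WT and 2294, 2272 and 1693 TPM in 6694c2 WT. Rpl24, a protein of the large subunit, had 1734, 1663 and 1782 TPM against 1386, 1336 and 1057 TPM. The lines did not overlap for either gene, and Rpl24 and Rpl35a are the 2 members on chromosome 16. When 6694c2 WT replicate 3 was left out, 48 members were higher and 3 lower, with 46.03% of all genes called. When the median member was set equal in each library, 13 were higher and 27 lower, with 53.9% of all genes called, so the balance of higher and lower members depends on the scale to which they are set; Rps6, Rpl32, Rpl15, Rps7 and Rps24 were higher and Rps26, Rpl24, Rpl35a and Rpl21 lower on both scales. Of the macrophage markers 4 of 10 were lower in 6694c2 WT, and of the epithelial ones 6 of 8 were lower and 1 higher; their part in the result was not tested.

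In 6694c2 the knockout clones had higher levels than WT of all 4 members that lie on the X chromosome. Of 83 members 9 were called higher and 0 lower (limma, adjusted p under 0.05), 10.8% of members against 20.4% of all genes (14.7% higher and 5.79% lower); 18 members had an unadjusted p under 0.05. The median difference was 0.10 over the members and 0.15 over all genes. Rpl39, a small protein at the exit tunnel (chromosome X, 37082520 to 37085402, minus strand, GRCm38), had 1489, 779 and 1313 TPM in WT, then 1772, 2332 and 2502 TPM in A and 1992, 2141 and 1747 TPM in B. All 6 knockout libraries were above the 3 WT libraries, and the difference was 0.84 (SE 0.23, limma adjusted p = 0.0207). Rps4x, a small subunit protein with a Y-linked relative in primates (chromosome X, 102184941 to 102189394, minus strand), had 2015, 1373 and 1736 TPM in WT, then 2249, 2403 and 2464 TPM in A and 2293, 2329.8 and 2058 TPM in B, again with no overlap (0.44, SE 0.10, limma adjusted p = 0.00726). Rpl10, which sits near the peptidyl transferase center (chromosome X, 74270812 to 74273135, plus strand), had 2541, 1956 and 2002 TPM in WT and 2482 to 3348 TPM in the knockout libraries, the lowest of which lay under the highest WT library (0.43, SE 0.093, limma adjusted p = 0.00484). Rpl36a (chromosome X, 134585654 to 134588062, plus strand) had 1629, 1184 and 1187 TPM in WT and 1609 to 1958 TPM in the knockouts (0.40, limma adjusted p = 0.0126).

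Of the 4 members on chromosome 10, Rps26 and Rps12 were called as well. Rps26, at the exit of the messenger RNA channel of the small subunit (chromosome 10, 128624534 to 128626747, minus strand), had 3337, 2556 and 2191 TPM in WT, then 3879, 3931 and 4211 TPM in A and 3960.4, 3989 and 3658 TPM in B. The groups did not overlap (0.57, SE 0.10, limma adjusted p = 0.0014). Rps12 (chromosome 10, 23785183 to 23787275, minus strand) had 4320.3, 4073 and 2963 TPM in WT and 4638 to 5199 TPM in the knockouts, also without overlap (0.41, limma adjusted p = 0.00972). Rpl22 (0.33), Rpl21 (0.28) and the paralog Rpl7l1 (0.25) were the other calls, with limma adjusted p of 0.0339, 0.0236 and 0.0172. Rpl5 (95% interval -0.06 to 0.54), Rpl11 (-0.02 to 0.48), Rps6 (-0.12 to 0.20), Rps19 (-0.18 to 0.33) and Rplp0 (-0.19 to 0.21) did not pass.

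The balance of the members depended on WT replicate 3 of 6694c2. Without that library 5 members were higher and 18 lower, with 20.9% of all genes called. The 5 were Rpl39 (0.94), Rps4x (0.46), Rps26 (0.43), Rpl10 (0.38) and Rps12 (0.24), and the median of the members was -0.06 against 0.18 over all genes. Without WT replicate 1, 19 members were higher and 0 lower, with 17.4% of all genes called. It also depended on the scale, with 11 higher and 3 lower when the median member was set equal (13.8% of all genes called). After median-of-ratios scaling 2 were higher and 3 lower, and after quantile normalization 5 were higher and 8 lower (shares over all genes not given here). Markers of other cells moved with the knockout too. Higher in the knockouts were 6 of 7 tested neutrophil markers, 4 of 5 of T and NK cells, 4 of 8 of fibroblasts and 3 of 6 of endothelium, and 0 of 10 macrophage markers passed. Of the erythroid markers 3 of 4 were lower, and of the epithelial ones 3 of 8. The neutrophil sum was 18.2 to 27.3 TPM in WT, 161 to 349 TPM in A and 36.9 to 65.4 TPM in B, with the marker Ly6g at 0 in all WT libraries. The part of these cells in the result was not tested. With the mean log level of the macrophage markers as a covariate, 9 members were higher and 1 lower, 8 of them also called without it (share over all genes not given here). The macrophage sums did not overlap between WT (308 to 1949 TPM) and clone A (3586 to 6625 TPM). Macrophage level and clone thus cannot be told apart there. Against the WT libraries that both share, clone A had 8 members higher and 0 lower (21.7% of all genes called) and clone B 4 higher and 0 lower (14.5%). Rps26, Rps12 and Rps4x were called in both. Between the clones 1 member was called, Rpl19, lower in clone B (-0.33, limma adjusted p = 0.0494, 9.53% of all genes called), and 5 had an unadjusted p under 0.05. The Rpl19 call was lost when any of 15 of the 18 libraries was left out, and under 9 of 13 other alternatives.

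In 6419c5 the mean of the knockout clones differed from WT in 2 members, 1 higher and 1 lower, with 7.38% of all genes called and 7 members at an unadjusted p under 0.05 (limma). The paralog Rpl7l1 (chromosome 17, 46773907 to 46782672, minus strand), which is named after Rpl7 and shares no 31-base word with it, had 74.3, 66.8 and 70.8 TPM in WT, then 94.03, 85.8 and 82.997 TPM in A and 101, 108 and 101 TPM in B. The 3 groups did not overlap (0.42, SE 0.067, limma adjusted p = 0.000874). Rpl7, of the large subunit, had 2074, 1760.1 and 1886 TPM in WT, then 1915, 1639 and 1613 TPM in A and 1319, 1307 and 1359.6 TPM in B (-0.33, SE 0.080, limma adjusted p = 0.0181). All libraries of clone B, and 2 of the 3 of clone A, were below the WT range. Without the 3 libraries that stood apart Rpl7 no longer passed (adjusted p = 0.0801). Without 6694c2 WT replicate 3, which enters only through the shared spread, 9 members were called, 8 of them lower (9.14% of all genes called).

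The clones of 6419c5 differed from each other in more members than their mean differed from WT. Clone B minus clone A gave 4 members higher and 9 lower, 15.7% of members against 26.3% of all genes (7.38% higher and 18.9% lower). On chromosome 1, all 3 members were lower in clone B. Rpl37a (chromosome 1, 72711290 to 72713813, plus strand) had 1346, 1408 and 1335 TPM in A and 891, 875 and 991 TPM in B (-0.57, SE 0.16, limma adjusted p = 0.0161). Rpl31 (chromosome 1, 39367842 to 39371911, plus strand) had 668, 676 and 584 TPM against 434, 435 and 478 TPM (-0.51, limma adjusted p = 0.0161), and Rpl7 (chromosome 1, 16101295 to 16104662, minus strand) was lower by the values above (-0.37, limma adjusted p = 0.00833). On chromosome 18, both members were higher. Rps14, a small subunit protein (chromosome 18, 60747098 to 60778546, plus strand), had 2525, 2645 and 2433 TPM in WT, then 2393, 2289.8 and 2342 TPM in A and 3423, 3190.4 and 3477 TPM in B (0.52, SE 0.084, limma adjusted p = 0.000542). Rpl17, a large subunit protein (chromosome 18, 74998558 to 75003381, plus strand), had 1914, 1724 and 1855, then 1807, 1720.1 and 1563, then 2375, 2343 and 2483 TPM in the same groups (0.50, limma adjusted p = 0.00146). For these 5 genes all libraries of clone B lay outside the range of WT and clone A.

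Chromosome 7 carries 14 members, and they split by position. The 8 that start before the middle of the chromosome, from Rps9 to Rpl18, include none called between the clones. Beyond it, Rps3 (chromosome 7, 99477896 to 99483738, minus strand), Rpl27a (chromosome 7, 109519147 to 109522367, plus strand), Rps13 (chromosome 7, 116331505 to 116334195, minus strand) and the stalk gene Rplp2 (chromosome 7, 141447370 to 141451585, plus strand) were called lower (-0.34, -0.36, -0.44 and -0.44), and Rps15a was not (-0.25). Rps3, which also has a known part in DNA repair, had 739, 750.2 and 755 TPM in A and 576, 569 and 635 TPM in B. Rplp2 had 2769, 3066 and 2834 TPM and 1895, 2228 and 2279.6 TPM. Rps12 on chromosome 10 and Rpl36al on chromosome 12 were also lower, and Rpl21 on chromosome 5 and Rpl7l1 on chromosome 17 higher. This split of chromosome 7 was seen in the data and then described. All 10 macrophage markers, 4 of 8 fibroblast and 3 of 7 neutrophil markers were lower in clone B, and the macrophage sums did not overlap (2586 to 8753 TPM in A and 384 to 620.01 TPM in B). Fibroblast markers summed to 920.2 to 956 TPM and 249.8 to 279.6 TPM. With the macrophage level as a covariate, 2 members were called, Rps14 (0.61, limma adjusted p = 0.0124) and Rpl7 (-0.56, adjusted p = 0.019), while Rpl37a stood at -0.17 (adjusted p = 0.632) and Rplp2 at -0.06 (adjusted p = 0.878). The share over all genes in this fit is not given here. Since the macrophage sums did not overlap between the clones, macrophage level and clone cannot be told apart. Against WT, clone A had 1 member higher and 0 lower (4.79% of all genes called) and clone B 3 higher and 9 lower (18.9%).

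**Figure D2:**
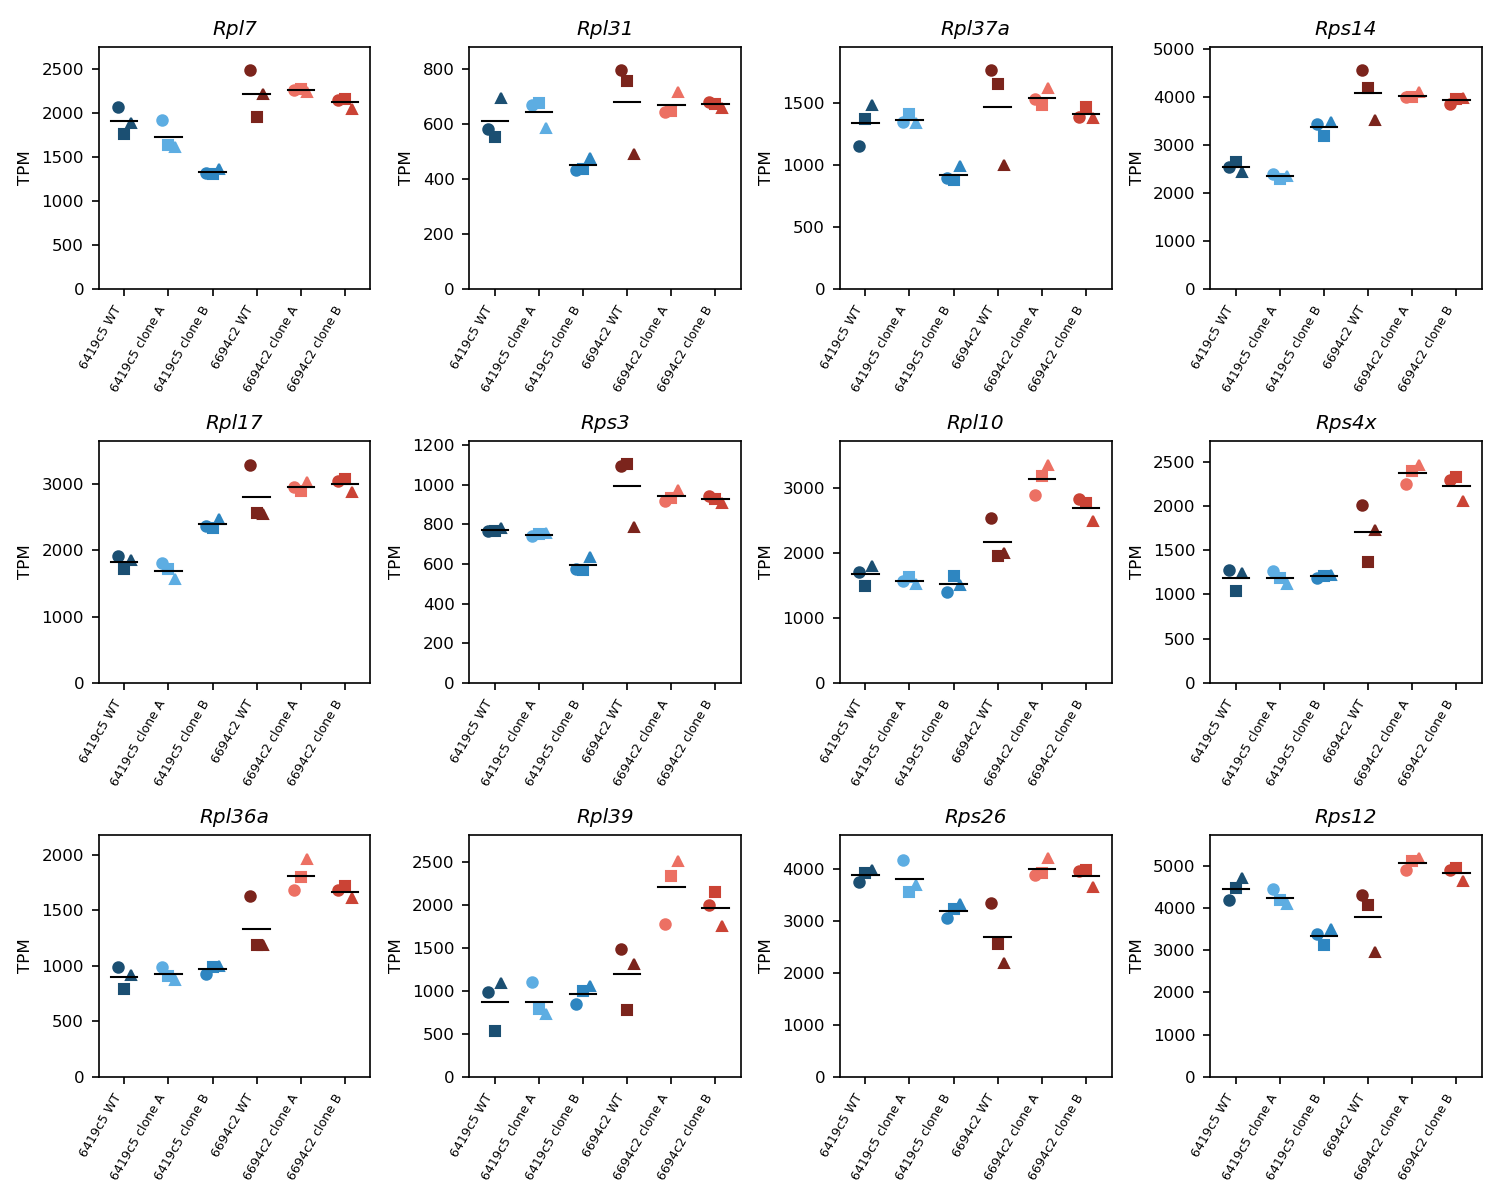
TPM per library (y axis) in the 6 groups for 12 members; circles, squares and triangles are replicates 1, 2 and 3 and bars are group means. Rpl7, Rpl31, Rpl37a and Rps3 are lower and Rps14 and Rpl17 higher in 6419c5 clone B than in clone A, and Rpl10, Rps4x, Rpl36a, Rpl39, Rps26 and Rps12 are higher in the 6694c2 clones than in 6694c2 WT.

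Differences of the members went with those of the other genes of their stretch of chromosome, to the degrees given next. For each member the median difference of the tested genes within 10 Mb that are not members was taken, over 26 to 353 genes (median 124). Between the clones of 6419c5, the tested genes of chromosome 1 that are not members had a median of -0.43, and those of chromosome 18 had 0.39. The neighbours of Rpl37a had -0.46, those of Rps14 0.34 and those of Rps3 -0.42, beside the members' own -0.57, 0.52 and -0.34. In the knockouts of 6694c2, genes of the X chromosome had a median of 0.36 and those of chromosome 10 of 0.35, the largest of the 20 chromosomes, against 0.15 over all genes. The neighbours of Rpl10 had 0.38, those of Rps4x 0.39 and those of Rps26 0.35. Between the WT lines, genes of chromosome 16 had a median of -0.79, the lowest of the 20, and the neighbours of Rpl35a and Rpl24 had -0.81 and -0.64.

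**Figure D3:**
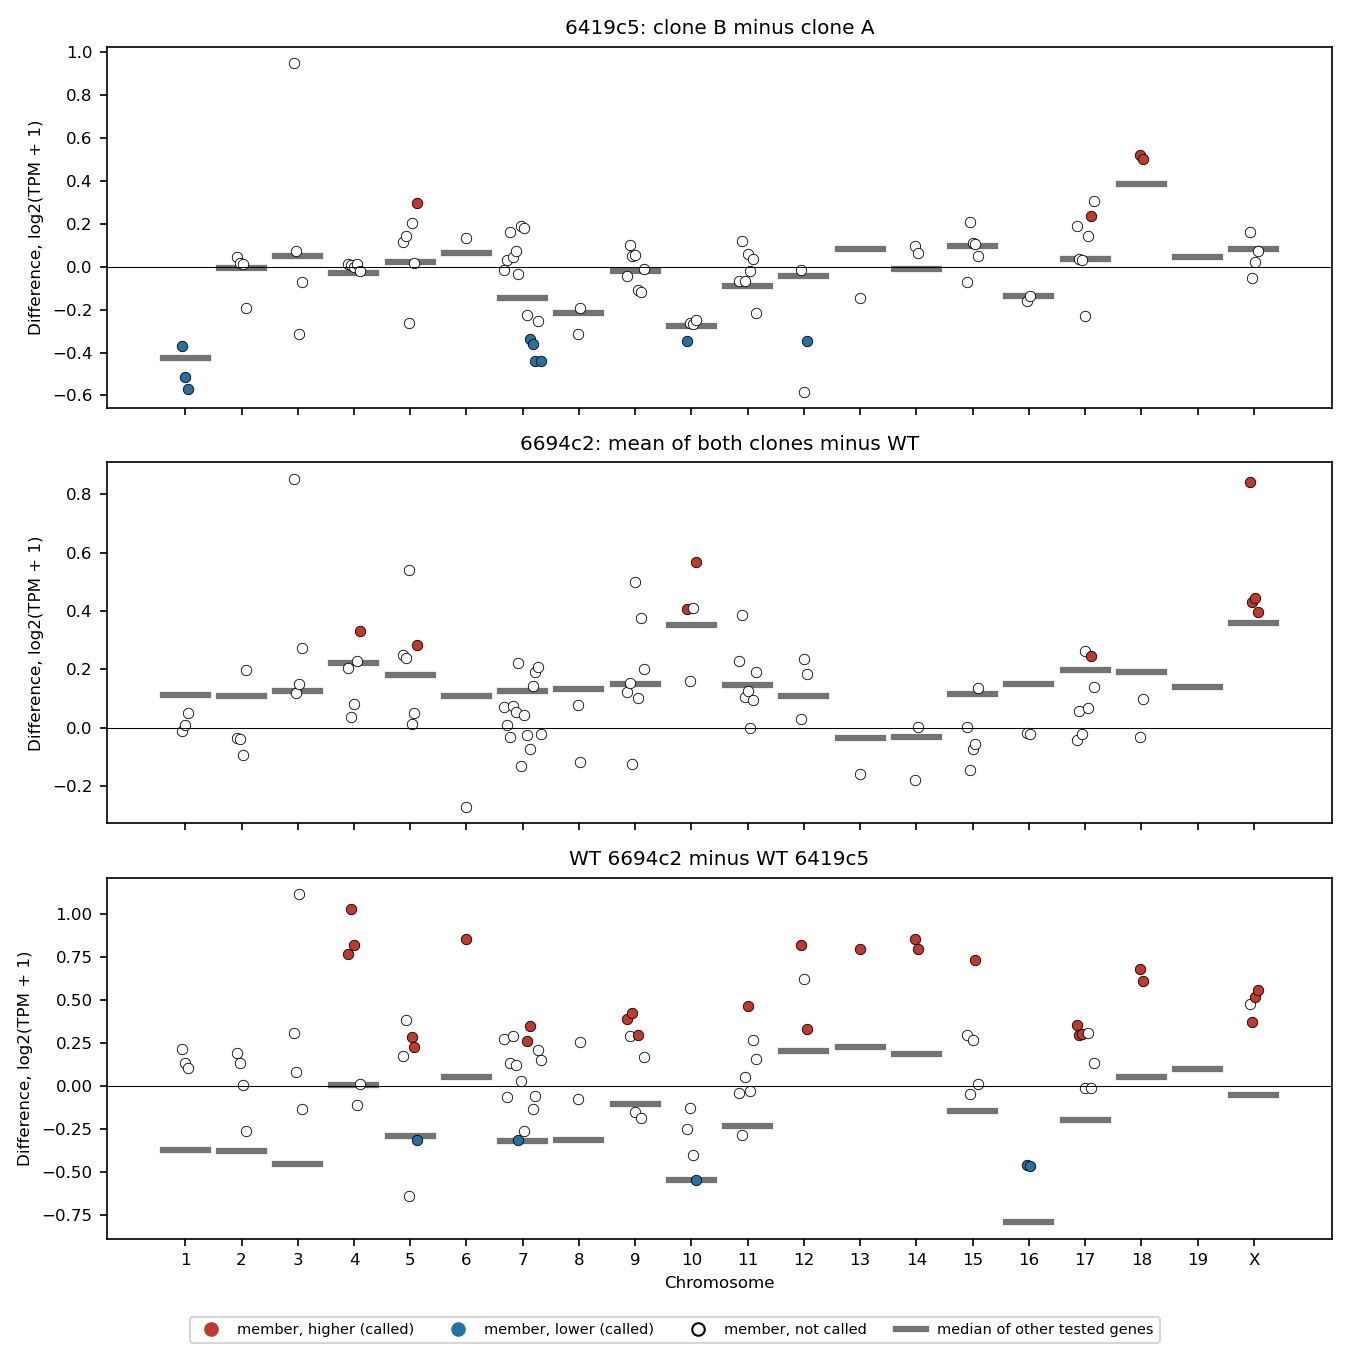
Difference of each member on the log2(TPM + 1) scale (y axis) by chromosome (x axis) for clone B minus clone A of 6419c5, the mean of both clones minus WT in 6694c2, and WT 6694c2 minus WT 6419c5; filled points are called members and grey bars the median of the other tested genes of the chromosome. In the first panel the 3 members of chromosome 1 and the 2 of chromosome 18 lie beside grey bars at -0.43 and 0.39.

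Over the 83 members the Pearson correlation of a member's difference with its neighbours' median was 0.73 between the clones of 6419c5, 0.65 between the WT lines and 0.56 for the knockout in 6694c2. It was 0.43 for the knockout in 6419c5 and 0.34 between the clones of 6694c2. These describe genes, which are not independent: the members share libraries, and neighbouring members share neighbours. In a further fit, chosen after seeing the data and fitted to 13217 genes, the neighbours' median was subtracted in each library. Of the 13 members called between the clones of 6419c5, 0 were then called (21.8% of all genes called, 0 members). Of the 9 called in the knockouts of 6694c2, 0 were called, and 5 others were lower (Rps3, Rpl4, Rpl32, Rpl13a and Rpl10a; 19.2% of all genes called). The median standard error of a member rose from 0.119 to 0.132 between the clones. Between the WT lines the outcome was another: 46 members were higher and 0 lower (39.0% of all genes called), 22 of them called before. Rpl24 and Rpl35a changed sign to 0.20 and 0.35 and were no longer called (limma adjusted p = 0.568 and 0.0828). Before any subtraction, 77 of 83 members lay above their neighbours' median in that comparison, by a median of 0.42. What moves genes of a chromosome together in these libraries was not tested.

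**Figure D4:**
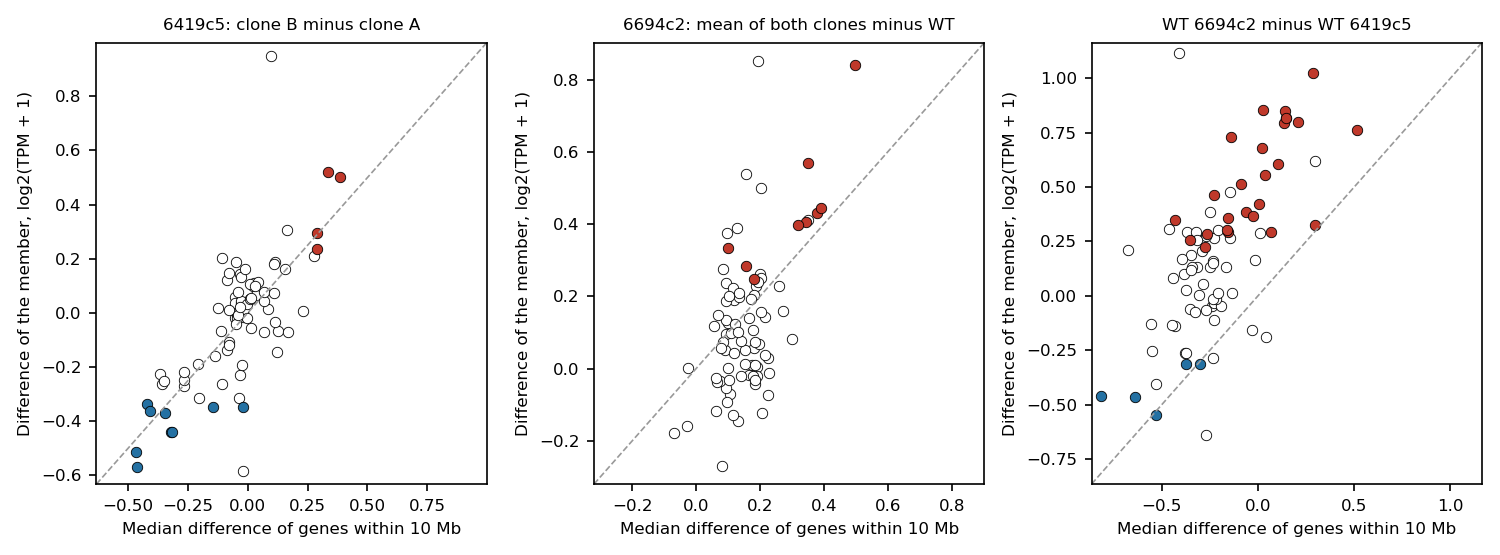
Difference of each of the 83 members (y axis, log2(TPM + 1)) against the median difference of the other tested genes within 10 Mb (x axis) in the same 3 comparisons; red points are members called higher, blue called lower, white not called, and the dashed line marks equal values. In the comparison of the WT lines 77 of 83 points lie above the line.

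The difference between the lines in the knockout effect was tested as an interaction, and 3 members passed, all higher in 6694c2 (8.71% of all genes called): Rps26 (0.72, SE 0.15, limma adjusted p = 0.00708), Rps12 (0.65, adjusted p = 0.01014) and Rpl10 (0.54, adjusted p = 0.0199). A further 9 had only an unadjusted p under 0.05. With the median member set equal in each library, 2 members were higher (Rps26 and Rps12) and 6 lower, with 6.56% of all genes called, and Rpl10 did not pass (limma adjusted p = 0.0516). Single WT libraries moved the count. Without 6694c2 replicate 3, 3 members were higher and 9 lower (9.35% of all genes called). Without 6694c2 replicate 1, 10 were higher and 0 lower (7.60%). Without 6419c5 replicate 2, 7 were higher and 0 lower (share over all genes not given here). Without the 3 libraries that stood apart only Rps26 passed, and 0 passed after median-of-ratios scaling or after the neighbours were subtracted. In 6419c5 Rpl10 had 1496 to 1803 TPM in WT and 1402 to 1646 TPM in the knockouts, and Rpl39 had 528 to 1090.2 TPM and 727 to 1098 TPM, with overlapping groups. Rps26 had lower values in clone B of 6419c5 (3052, 3227 and 3322 TPM) than in its WT (3748, 3917 and 3985 TPM), and the difference did not pass (-0.28, limma adjusted p = 0.121).

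Among the paralogs, Rps27 and Rps27rt are nearly identical in sequence: 98.7% of the 31-base words of the Rps27 transcript are in that of Rps27rt, with a shared run of 341 of 345 bases. Rps27 was listed at 10.5 to 829 TPM over the 18 libraries, with 10.5, 389.8 and 125 TPM in 6419c5 WT alone, and Rps27rt at 2463 to 4747 TPM. Their sum varied far less, from 3270.02 to 4918 TPM. It averaged 3844 ± 486 TPM in 6419c5 WT, 3981 ± 289.5 TPM in A and 3596 ± 231 TPM in B (SD, n = 3). In 6694c2 it averaged 3704 ± 731 TPM in WT, 4577 ± 304 TPM in A and 4239 ± 84.0 TPM in B. Rps27l, the paralog that p53 induces, shares no 31-base word with Rps27 and had 135 to 282 TPM.

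Rpl22l1, the paralog that replaces Rpl22 in some ribosomes, had the next widest spread within groups. It had 147, 7.599 and 79.1 TPM in 6419c5 WT and 39.9, 17.8 and 249 TPM in 6694c2 WT, so that it made up 3.19% to 39.6% of the sum with Rpl22 in the former and 6.51% to 55.8% in the latter. No contrast called it. Rpl22 itself had 198 to 332 TPM over the 18 libraries. Rpl36al made up 33.4% ± 3.45 of its sum with Rpl36a in 6419c5 WT, 29.2% ± 0.2005 in clone B, 29.95% ± 3.28 in 6694c2 WT and 26.8% ± 1.16 in clone B of 6694c2 (SD, n = 3). Rpl7l1 made up 3.58% ± 0.103 of its sum with Rpl7 in 6419c5 WT, 4.85% ± 0.153 in A and 7.22% ± 0.362 in B, where Rpl7 was low. Just under the threshold for members, Rps4l, annotated as a transcribed processed pseudogene (chromosome 6, 148354656 to 148355598, plus strand), had 12.1 to 17.9 TPM in 6419c5 WT and 14.2 to 34.2 TPM in clone A. It had 0.655 to 1.03 TPM in clone B and 0.686 to 0.752 TPM in 6694c2 WT (clone B minus clone A -3.81, SE 0.40, limma adjusted p = 1.79e-05). Rpl39l, Rpl3l and Rpl10l, known from testis or muscle, were at 1.43 TPM or less in every library.

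**Figure D5:**
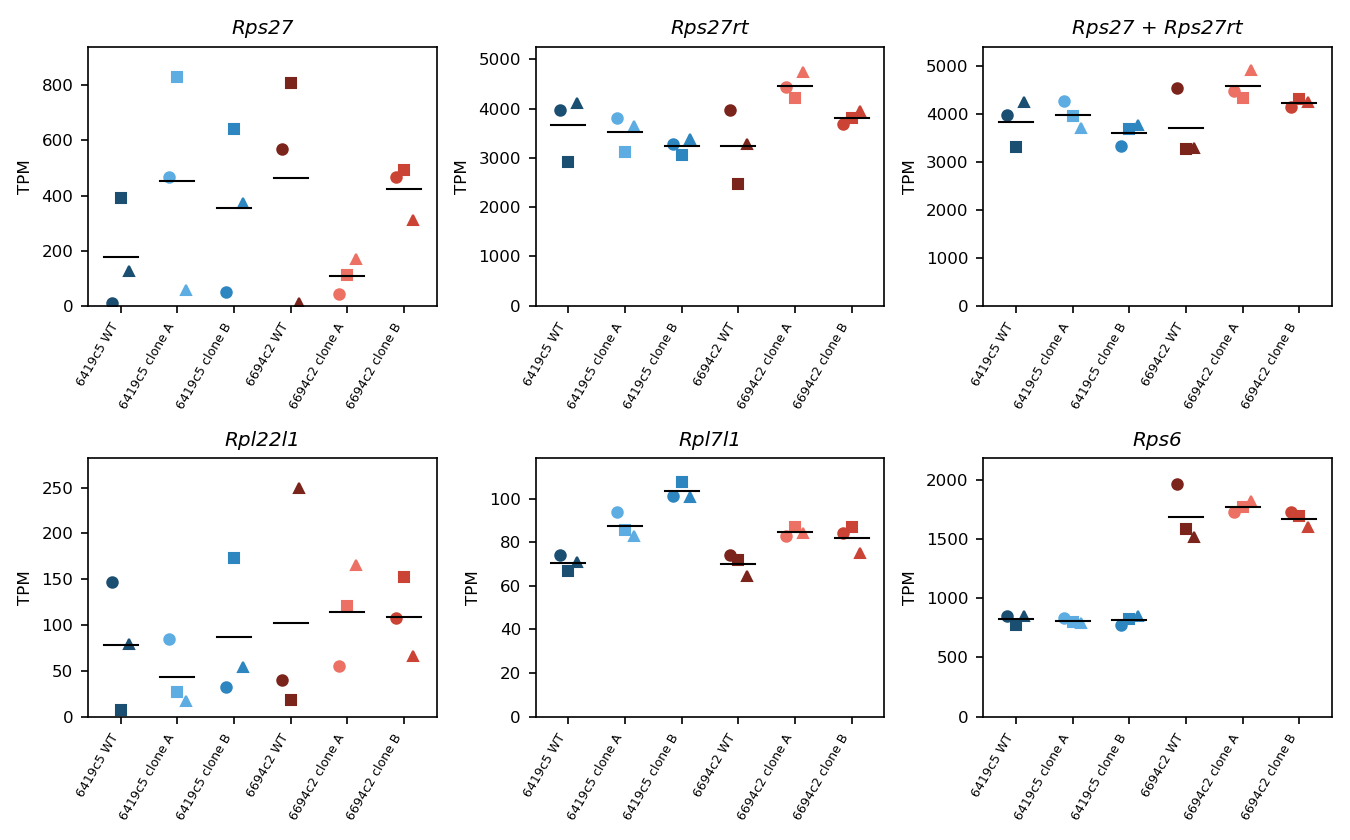
TPM per library (y axis) in the 6 groups for Rps27, Rps27rt, their sum, Rpl22l1, Rpl7l1 and Rps6; circles, squares and triangles are replicates 1, 2 and 3 and bars are group means. Rps27 ranges from 10.5 to 829 TPM while its sum with Rps27rt stays between 3270.02 and 4918 TPM, and Rps6 separates the lines.

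Relative to the median member, the SD of the 6 group means had a median of 0.18 on the log2 scale, against 0.088 within groups. It was under 0.1 for 17 members and above 0.25 for 24. The steadiest were Rps9, Rps10, Rpl6, Rpl29 and Rps19, at 0.0285 to 0.0455. Rps27, Rpl35a, Rpl22l1, Rpl24 and Rpl26 varied most, at 0.95, 0.50, 0.50, 0.49 and 0.49. Of these, Rpl35a and Rpl24 had an SD within groups of only 0.053 and 0.043, whereas Rps27 and Rpl22l1 had 2.04 and 1.45. In some libraries the members' deviations from the mean of the other libraries of the group went with the GC content of their transcripts (40.6% to 62.4%). The Spearman correlation over the 83 members lay within 0.2 of 0 in 5 of 18 libraries and beyond 0.5 in 4. It was 0.64 in 6419c5 WT replicate 2 and 0.58 in 6694c2 WT replicate 2, and -0.51 in 6419c5 WT replicate 1 and -0.56 in 6694c2 WT replicate 3. In the latter library the 21 members with the highest GC content lay at a median of -0.23 and the 21 with the lowest at 0.14.

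The ribosome genes outside the name rule followed the members in part. Rpsa, Fau and Rack1 encode further proteins of the small subunit. Between the WT lines all 3 were higher in 6694c2, Rpsa by 0.68, Fau by 0.53 and Rack1 by 0.40 (46.3% of all genes called; limma adjusted p = 1.35e-05, 0.0109 and 0.00353). With the mean of both clones against WT, none of the 3 passed in limma in either line, with Rpsa and Rack1 at an unadjusted p under 0.05 in 6694c2 and 0 of them in 6419c5. Against WT, Rack1 was lower in clone B of 6694c2 (-0.33, limma adjusted p = 0.0335). Of 21 translation factors and other genes with a TOP tract, 7 were higher and 0 lower in 6694c2 WT than in 6419c5 WT (median 0.23), among them Tpt1 (1.20), Eef1g (0.96), Eef1a1 (0.76) and Eef2 (0.43). Of 33 tested ribosome biogenesis genes, 1 was higher and 13 lower (median -0.18), with Nop10 at -0.81, Utp20 at -0.67 and Wdr12 at -0.65. Of 77 mitochondrial ribosomal proteins, 2 were higher and 49 lower (median -0.46), the opposite balance to that of the cytosolic genes. Over all genes 14.1% were higher and 32.2% lower in this comparison, so lower genes prevailed there as in the biogenesis and mitochondrial lists. Among 16 regulators, Akt1 was higher (0.43) and Eif4ebp2 (-0.44), Rps6kb2 (-0.36) and Trp53 (-0.24) lower.

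In the knockouts of 6694c2, 4 of 8 host genes of small nucleolar RNAs, which also start with a TOP tract, were higher and 0 lower: Snhg1 (1.06), Snhg5 (0.94), Snhg12 (0.67) and Gas5 (0.55), with limma adjusted p from 0.00542 to 0.0396. Of the 21 translation factors 0 passed there, with 2 at an unadjusted p under 0.05. Of the 33 biogenesis genes 3 were higher and 1 lower, and of the mitochondrial ribosomal proteins 14 were higher and 1 lower. Over all genes 14.7% were higher and 5.79% lower in the knockouts of 6694c2. Between the clones of 6419c5, Cdkn1a (-0.996) and Mdm2 (-0.47), targets of p53, and Larp1 (-0.32) were among 5 of 16 regulators lower in clone B, and 0 were higher, where 18.9% of all genes were lower. The biogenesis gene Rrs1, whose product assembles with the Rpl5 particle, was lower in clone B (-0.71, limma adjusted p = 0.000438).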

How the data were processed

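RNA of sorted tumor cells was sequenced in 18 libraries. The authors deposited 1 table of TPM per gene symbol, made with Salmon on mm10 per the submitters' processing notes; version, annotation and any batch adjustment are not given in the sources used here. Columns letter the clones and labels number them: A was read as 1 and B as 2. Depth is unknown. The 13422 genes whose mean reached 1 TPM were fitted as log2(TPM + 1) with limma 3.58.1 (R 4.3.3; trend, 6 group means, 12 residual degrees of freedom), with Benjamini-Hochberg adjustment over all genes and a threshold of 0.05. Tables were made with Python 3.11.15 and pandas 2.3.3, and the code was tested on simulated data. The members and gene lists were chosen with earlier results of these data known. Named were stalk genes, paralogs, X-linked and Mdm2-binding members, Rps6, Rps19, and the highest, lowest and most changed members. Some genes are not reported here. Alternatives changed pseudocount, filter, scaling, trend, covariates, block and libraries. Positions are from GENCODE M21 and RefSeq.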

Additional observations from a re-analysis of the deposited data

Results flagged for a closer look

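The knockout effect differed between the lines in 3 members by the interaction test in limma, with 3 libraries in each group; 8.71% of all genes were called. After median-of-ratios scaling or the subtraction of neighbouring genes 0 members were called, and without the 3 libraries that stood apart 1 was. With the median member set equal 2 were higher and 6 lower. The effect in 6694c2 minus that in 6419c5 was 0.72 on the log2(TPM + 1) scale for Rps26 (adjusted p = 0.00708), 0.65 for Rps12 (adjusted p = 0.01014) and 0.54 for Rpl10 (adjusted p = 0.0199). In 6694c2 the effects were 0.57, 0.41 and 0.43, and in 6419c5 they were -0.15, -0.24 and -0.11, in the same order of genes.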

How the results depend on the processing

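The members called numbered 2 for the knockout in 6419c5, 9 for the knockout in 6694c2, 31 for the WT lines, 3 for the interaction, 13 for clone B against A in 6419c5, 1 for clone B against A in 6694c2, 1 for clone A against WT in 6419c5, 12 for clone B against WT in 6419c5, 8 for clone A against WT in 6694c2, 4 for clone B against WT in 6694c2. With quantile normalization they numbered 9 for the knockout in 6419c5, 5 for the interaction, 26 for clone B against A in 6419c5, 2 for clone A against WT in 6419c5, 15 for clone A against WT in 6694c2, 7 for clone B against WT in 6694c2. With members' median scaling they numbered 5 for the knockout in 6419c5, 14 for the knockout in 6694c2, 8 for the interaction, 2 for clone B against A in 6694c2, 2 for clone A against WT in 6419c5, 19 for clone B against WT in 6419c5, 15 for clone A against WT in 6694c2, 8 for clone B against WT in 6694c2. Without the 3 libraries that stood apart they numbered 1 for the knockout in 6419c5, 1 for the interaction, 0 for clone B against A in 6694c2, 0 for clone A against WT in 6419c5, 4 for clone B against WT in 6419c5, 1 for clone B against WT in 6694c2. With neighbouring genes subtracted they numbered 0 for the knockout in 6419c5, 5 for the knockout in 6694c2, 0 for the interaction, 0 for clone B against A in 6419c5, 0 for clone B against A in 6694c2, 0 for clone A against WT in 6419c5, 0 for clone B against WT in 6419c5, 0 for clone A against WT in 6694c2, 2 for clone B against WT in 6694c2. With median-of-ratios scaling they numbered 5 for the knockout in 6694c2, 0 for the interaction, 5 for clone B against A in 6419c5, 0 for clone B against A in 6694c2, 0 for clone A against WT in 6419c5, 5 for clone B against WT in 6419c5, 2 for clone B against WT in 6694c2. With macrophage index as a covariate they numbered 5 for the interaction, 2 for clone B against A in 6419c5, 0 for clone B against A in 6694c2, 3 for clone B against WT in 6419c5, 9 for clone B against WT in 6694c2. With pseudocount 0.1 they numbered 0 for clone B against A in 6694c2. With no filter on mean TPM they numbered 0 for clone B against A in 6694c2, 2 for clone B against WT in 6694c2. With 20 most abundant other genes removed they numbered 0 for clone B against A in 6694c2, 0 for clone A against WT in 6419c5. With no mean-variance trend they numbered 0 for clone B against A in 6694c2, 0 for clone A against WT in 6419c5. With replicate block they numbered 0 for clone B against A in 6694c2. Leaving out each library in turn gave 1 to 9 for the knockout in 6419c5, 6 to 23 for the knockout in 6694c2, 25 to 51 for the WT lines, 2 to 12 for the interaction, 5 to 24 for clone B against A in 6419c5, 0 to 5 for clone B against A in 6694c2, 0 to 2 for clone A against WT in 6419c5, 4 to 20 for clone B against WT in 6419c5, 4 to 21 for clone A against WT in 6694c2, 1 to 22 for clone B against WT in 6694c2. With neighbouring genes subtracted these members changed sign: Rpl21 at 0.00125 for the WT lines, Rpl24 at 0.198 for the WT lines, Rpl35a at 0.351 for the WT lines, Rpl21 at -0.0259 for clone B against A in 6419c5, Rpl27a at 0.122 for clone B against A in 6419c5, Rps3 at 0.122 for clone B against A in 6419c5, Rpl17 at -0.00579 for clone B against WT in 6419c5, Rpl31 at 0.0234 for clone B against WT in 6419c5, Rps12 at -0.0311 for clone B against WT in 6694c2, Rps4x at -0.0145 for clone B against WT in 6694c2. With quantile normalization these members changed sign: Rpl6 at -0.0469 for the WT lines. With members' median scaling these members changed sign: Rpl6 at -0.0377 for the WT lines. Same-numbered libraries correlated above 0.1 in 15 of 45 pairs (-0.385 to 0.481). Differently numbered libraries were not compared, so this cannot decide whether the numbers pair the samples. The main fit treated the samples as unpaired. With the replicate block 2 members were called for the knockout in 6419c5, 10 for the knockout in 6694c2, 32 for the WT lines, 3 for the interaction, 12 for clone B against A in 6419c5, 0 for clone B against A in 6694c2, 1 for clone A against WT in 6419c5, 10 for clone B against WT in 6419c5, 8 for clone A against WT in 6694c2, 3 for clone B against WT in 6694c2. For the summed share of TPM, with share of the TPM left without the 20 most abundant other genes, the values were 18.9% in 6419c5 WT, 17.7% in its clone A, 18.4% in its clone B, 22.7% in 6694c2 WT, 22.9% in clone A of 6694c2, 21.5% in clone B of 6694c2. For the summed share of TPM, with core ribosomal proteins only, the values were 18.3% in clone A of 6694c2, 17.2% in clone B of 6694c2. Where the list of a setting leaves out a comparison, its total count stayed close to that of the main fit. Its members could still change. For the WT lines 46 were called with neighbouring genes subtracted, all higher, and 22 of them were among the 31 of the main fit. With members' median scaling 13 were higher and 27 lower for the WT lines. The subtraction of neighbouring genes was chosen after seeing the data. The causes of these changes were not tested. The share of all genes called changed with the setting too. With members' median scaling it went from 20.4% to 13.8% for the knockout in 6694c2 and from 7.38% to 7.88% for that in 6419c5. For most other settings the share is not given here. Their counts therefore cannot tell a change in the members from a change in all genes. The files give no counts, so the depth is unknown and what it limits cannot be stated.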
